A study of Homo sapiens with 8 samples.

Results

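Satellite peaks are taken here as p53 peaks that appeared in Nutlin-3-treated cells close to, but not on, a site that was already in the list of DMSO-treated or doxorubicin-treated cells. They were chosen by position alone, as peaks of the Nutlin-3 list that overlapped no peak of the DMSO, doxorubicin or untreated lists, lay within 1000 bp of a DMSO or doxorubicin peak, and stood outside dense runs, meaning series of 5 or more successive Nutlin-3 peaks with gaps of at most 20 kb. The rule found 1325 of the 18159 Nutlin-3 peaks (7.3%), out of 24535 peaks in all lists. DMSO and doxorubicin peaks are called established peaks below.

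p53 was profiled by chromatin immunoprecipitation and sequencing in U2OS, a human osteosarcoma cell line with wild-type p53 per the labels, using the antibody DO-1. Cells received 10 µM Nutlin-3, 0.6 µg/ml doxorubicin, 0.1% DMSO or no treatment, and 24 h is listed for each. DMSO served as control of Nutlin-3 and no treatment as control of doxorubicin. There was 1 ChIP library per condition, with an input that is not analysed here and no replicates, and the lists held 18159, 3087, 2793 and 496 peaks in the order just given. The lists hold positions only, the number of reads is unknown, and no test between conditions was possible. All intervals are 95% intervals that cover counting error only and treat peaks as independent, and every difference below is described without a test.

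p53 is a transcription factor that binds DNA as a tetramer at response elements made of a pair of similar half-sites. MDM2 is a ubiquitin ligase that binds p53 and marks it for degradation. Nutlin-3 occupies the p53 pocket of MDM2 and so stabilises p53 without breaking DNA, whereas doxorubicin poisons topoisomerase II and activates p53 through DNA damage. In ChIP-seq a bound site is seen through sheared DNA fragments that are longer than the site, so reads spread to both sides of it and a peak caller sets the bounds from that spread.

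Examples show the arrangement. All positions are in hg18, as deposited. On chromosome 12 the Nutlin-3 list had a satellite from 827751 to 828291, 540 bp wide, with no counterpart in the other lists. At 280 bp from it, Nutlin-3 had a further peak from 827331 to 827471, which had the same bounds in the DMSO list and ran from 827371 to 827471 in the doxorubicin list. On chromosome 5, Nutlin-3 and DMSO had the same peak of 40 bp from 56826431 to 56826471, within a doxorubicin peak of 60 bp from 56826411. It was flanked by 3 satellites, from 56825751 to 56825911 on the lower side and from 56826771 to 56826931 and 56827051 to 56827231 on the higher side. On chromosome 13 the picture differed. There a Nutlin-3 peak of 400 bp began at 75044091, where a doxorubicin peak from 75043991 ended, and no Nutlin-3 peak overlapped the doxorubicin peak. The established site was thus in the Nutlin-3 list in some cases and absent in others, and the satellites split into 2 sets on that measure, which the rule did not use.

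**Figure D1:**
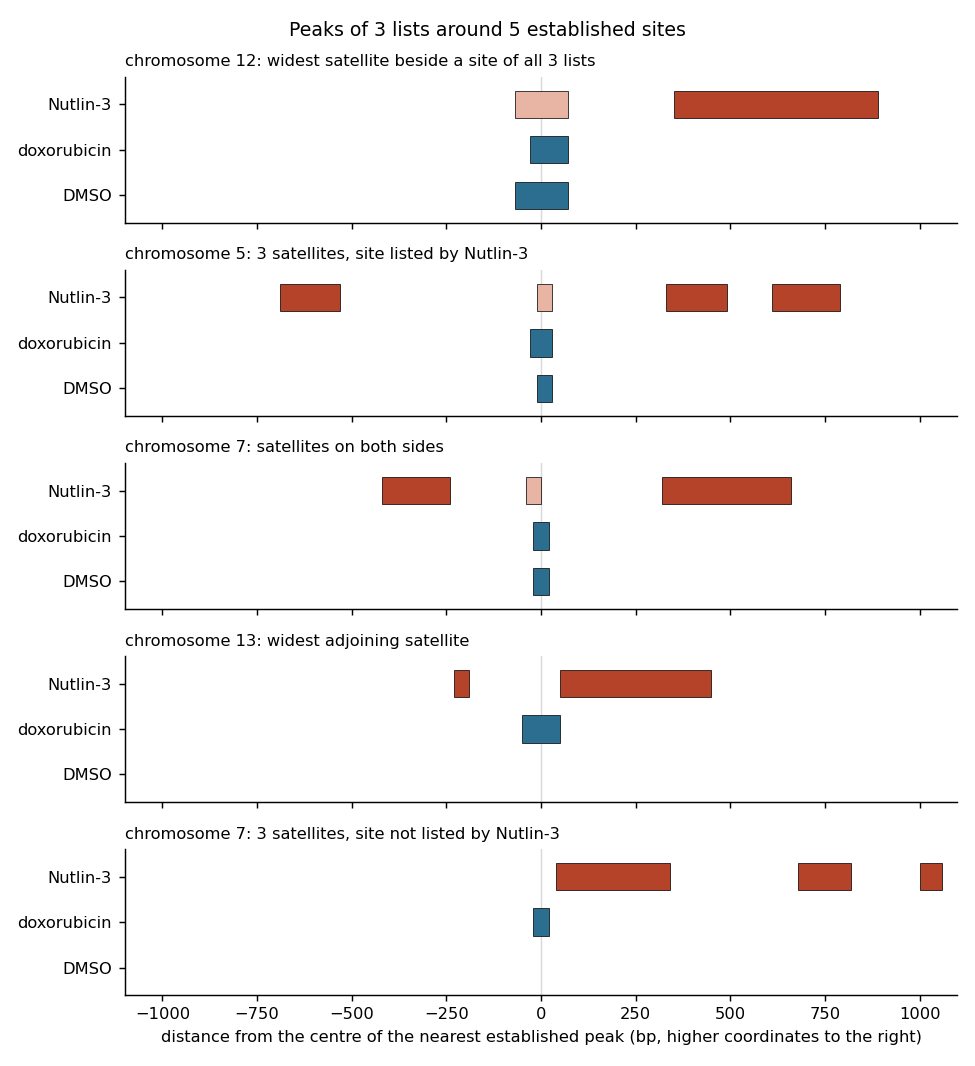
Peaks of the Nutlin-3, doxorubicin and DMSO lists around 5 established sites; the horizontal axis is the distance in bp from the centre of the established peak nearest to the satellite, and each bar is a peak drawn to scale. Dark red bars are satellites, pale red bars are Nutlin-3 peaks on the established site and blue bars are established peaks. In the upper 3 panels Nutlin-3 has a peak on the site and satellites beside it, and in the lower 2 it has peaks beside the site alone.

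Satellites beside a site that Nutlin-3 also listed stood well apart from it. For 744 of the 1325 satellites (56.2%, 53.4 to 58.8) the nearest established peak was itself overlapped by another Nutlin-3 peak. Which set was larger depended on the narrowest peaks: with peaks of 40 bp left out of all lists, the share was 28.3% (24.7 to 32.1) of 608 satellites, so the order of the sets turned round. In the full lists the gap of the 744 to the established peak, measured from edge to edge, had a median of 280 bp (260 to 300), with 50% of them between 220 and 420 bp. The most frequent gap was 220 bp, with 61 satellites, and 395 (53.1%) lay from 200 to under 400 bp away. Only 28 (3.76%, 2.52 to 5.39) were closer than 100 bp and 2 adjoined the established peak.

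Close neighbours of this kind are limited by the list itself. In the whole Nutlin-3 list 19 gaps between successive peaks were under 140 bp and the smallest was 60 bp, and no satellite had another Nutlin-3 peak nearer than 120 bp. The spacing is therefore also that of the list. Where another Nutlin-3 peak lay within 1000 bp, the median gap to it was 280 bp (260 to 280) for satellites, 300 bp (280 to 320) for the isolated Nutlin-3 peaks described below and 280 bp (260 to 280) for Nutlin-3 peaks on established sites. Successive peaks within 1000 bp of each other had a median gap of 340 bp in the doxorubicin list and 260 bp in the DMSO list.

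Satellites beside a site that Nutlin-3 did not list lay next to it. The other 581 satellites (43.8%, 41.2 to 46.6) had a nearest established peak that no Nutlin-3 peak overlapped. Their median gap was 40 bp (20 to 40), and 396 of them (68.2%, 64.2 to 71.9) were closer than 100 bp. The most frequent gap was 0, where the satellite adjoined the established peak, with 184 satellites (31.7%, 27.9 to 35.6). Gaps of 20 bp added 103. The adjoining class exists only if a peak's end lies outside it: with the end inside, 346 satellites stood beside unlisted sites, with a median gap of 60 bp (40 to 80) and 60.7% (55.3 to 65.9) closer than 100 bp, and 793 beside listed sites, with a median of 280 bp. With ends outside, and since positions sit on a grid of 20 bp, 287 of the 581 (49.4%, 45.3 to 53.5) lay within 1 step of the established peak. In 61 of the 184 adjoining pairs both peaks had the smallest width in the lists, 40 bp. The distance between midpoints had a median of 110 bp, against 360 bp for satellites beside a listed site.

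**Figure D2:**
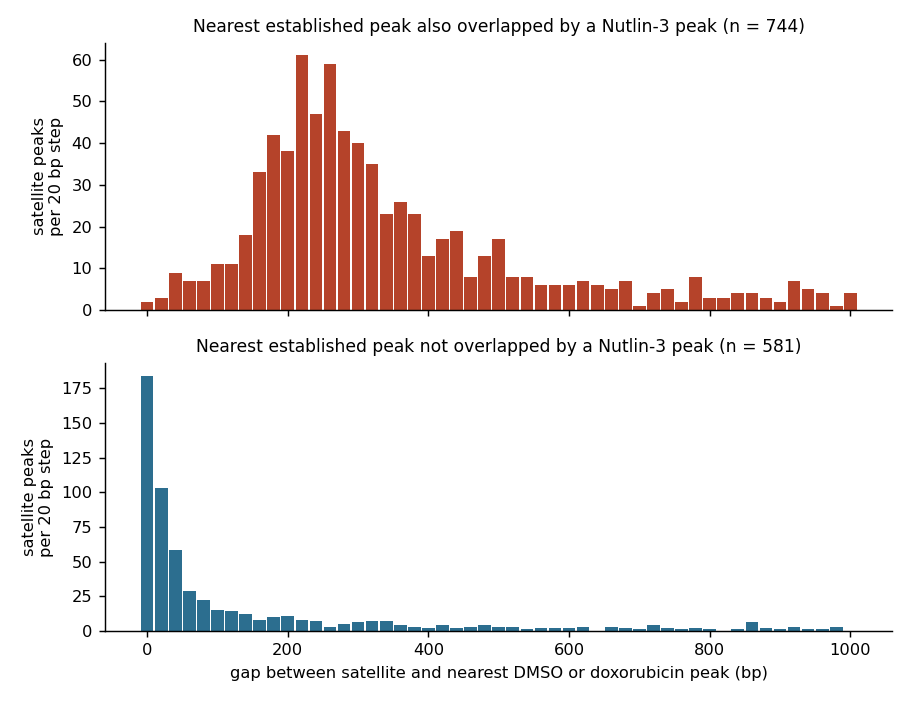
Number of satellites (vertical axis, per step of 20 bp) by the gap in bp to the nearest DMSO or doxorubicin peak (horizontal axis). The 744 satellites beside a site that Nutlin-3 also listed, at the top, are most frequent at 220 bp and rare below 100 bp, and the 581 beside a site that it did not list, at the bottom, are most frequent at 0.

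The 2 sets changed places along the distance axis. Among the 424 satellites with gaps under 100 bp, 6.6% (4.43 to 9.4) stood beside a listed site. The spacing of the Nutlin-3 list limits this share, since no satellite had another Nutlin-3 peak nearer than 120 bp. The share was 66.1% of 174 satellites from 100 to under 200 bp, 87.9% (83.6 to 91.5) of 282 from 200 to under 300 bp, 84.5% of 174 from 300 to under 400 bp and 73.1% of 186 from 500 to 1000 bp. Pooled, the gaps had a median of 220 bp (200 to 220), a value that lies between the medians of the 2 sets.

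The upper bound of 1000 bp came from the rule. Just inside it, 4 satellites had a gap of exactly 1000 bp, among them chromosome 1 from 89041351 to 89041411 and chromosome 20 from 23084871 to 23084951. Just outside it, with a gap of 1020 bp, were the peaks on chromosome 2 from 108346571 to 108346611 and on chromosome 5 from 126039911 to 126039951, which are not counted.

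With peak ends taken to lie outside, Nutlin-3-only peaks were densest per length of sequence against the established peaks and thinned with distance. Of the Nutlin-3 peaks outside dense runs that overlapped no other list, 9.60% were satellites (1325 of 13802), a share that the rule sets. Within 100 bp of an established peak there were 483 per Mb of sequence (438 to 531, exact Poisson), from 100 to 200 bp 210 per Mb (180 to 244) and from 200 to 300 bp 352 per Mb (312 to 395). The dip lay where the 2 sets meet. Density then fell at every step to 35.6 per Mb (23.4 to 51.8) at 800 to 900 bp, and was 42.3 per Mb (29 to 59.8) at 900 to 1000 bp. Of the 424 peaks within 100 bp, 186 had a gap of 0 and count only if a peak's end lies outside it. With the end inside, 28 satellites beside listed and 210 beside unlisted sites were closer than 100 bp. From 200 to 300 bp there were 282 peaks with the end outside. The nearest ring need therefore not be the densest with the end inside, for which density was not computed.

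The excess did not stop at the limit of 1000 bp. From 1 to 2 kb the density was 18.6 per Mb (15.7 to 22), from 2 to 5 kb 10.7 per Mb (9.39 to 12.2) and from 5 to 10 kb 7.12 per Mb (6.27 to 8.07). It was 5.34 per Mb (4.8 to 5.93) at 10 to 20 kb and 6.1 per Mb (5.81 to 6.4) at 50 to 100 kb. Relative to this outer level, and with ends outside, the density was 79.2 times higher within 100 bp, 57.7 times at 200 to 300 bp, 6.94 times at 900 to 1000 bp and 3.05 times at 1 to 2 kb. The value within 100 bp includes the 186 peaks with a gap of 0.

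**Figure D3:**
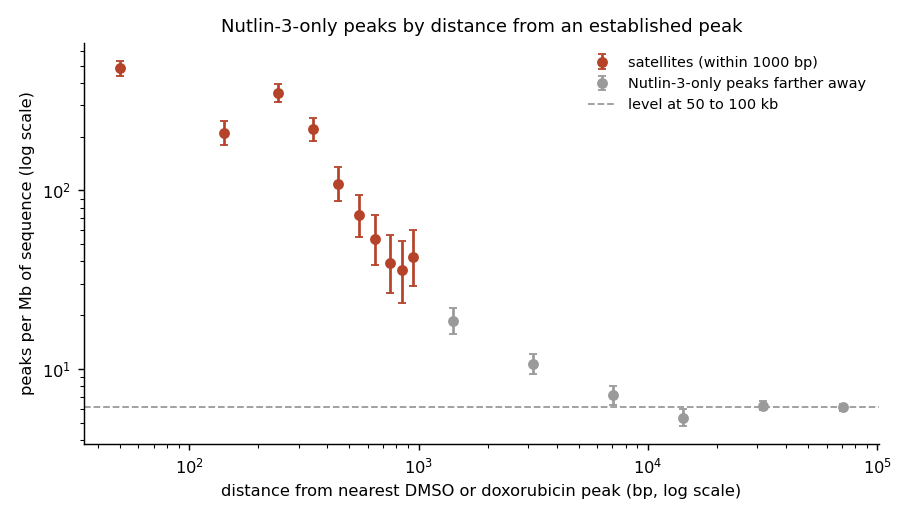
Nutlin-3-only peaks outside dense runs per Mb of sequence (vertical axis, log scale) by distance from the nearest DMSO or doxorubicin peak (horizontal axis, bp, log scale), with exact 95% Poisson intervals. Red points are satellites, grey points are peaks farther away that are not satellites, and the dashed line is the 6.1 per Mb at 50 to 100 kb; the red points dip at 100 to 200 bp and the grey points reach the line beyond 10 kb. Peak ends are taken to lie outside, and 186 of the 424 peaks of the first point have a gap of 0.

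Satellites lay about equally on either side of the established peak. On the higher-coordinate side there were 685 (51.7%, 49 to 54.4) and on the lower side 640 (48.3%, 45.6 to 51). The share on the higher side was 53.6% (50 to 57.3) beside listed sites and 49.2% (45.1 to 53.4) beside unlisted sites. The median gap was 220 bp on each side, and the median width 60 bp on each side. Strand and gene orientation could not be set beside the side, since no annotation of hg18 was used. Over the 21 chromosomes with at least 20 satellites the share on the higher side ranged from 35.3% on chromosome 19 to 58.6% on chromosomes 2 and 3, with a median of 50.7%.

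Most established regions with satellites had a single satellite. Overlapping or adjoining DMSO and doxorubicin peaks were merged into 4495 established regions. Of these, 908 had 1 satellite, 180 had 2 and 19 had 3, and none had more. Where there were 2 or 3, they stood on both sides in 137 of 199 regions (68.8%, 61.9 to 75.2) and on the same side in the rest. Nutlin-3 itself listed 84 of these 137 regions (61.3%, 52.6 to 69.5) and 524 of the 908 with 1 satellite (57.7%, 54.4 to 60.9). Among the 137, the largest summed satellite width was on chromosome 7, where satellites of 180 bp and 340 bp stood below and above a peak of 40 bp shared by doxorubicin and DMSO, from 78255311 to 78255351. On the same chromosome the doxorubicin peak from 1944751 to 1944791 was overlapped by no Nutlin-3 peak and had 3 satellites on the higher side, from 1944811, 1945451 and 1945771. Few satellites, 41 of 1325, lay between established peaks on both sides within 1000 bp, and 9 lay within 1000 bp of a peak of untreated cells.

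The share of satellites beside a listed site was highest where both lists held the site. At regions found with both DMSO and doxorubicin there were 572 satellites, and 496 of them (86.7%, 83.7 to 89.4) had a nearest established peak that Nutlin-3 also listed. At regions found with doxorubicin alone the share was 109 of 334 (32.6%, 27.6 to 38), and at regions found with DMSO alone 139 of 419 (33.2%, 28.7 to 37.9). The same order held for regions with or without a satellite, of which Nutlin-3 listed 96.3% of those held by both, 43.8% of those held by doxorubicin alone and 51.6% of those held by DMSO alone. Within each set the gaps were similar at the 3 kinds of region. The median was 280 bp beside listed sites of both lists, 300 bp beside those of doxorubicin alone and 260 bp beside those of DMSO alone, while beside unlisted sites it was 50, 20 and 40 bp in the same order.

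Seen from the established regions, 1107 of 4495 (24.6%) had at least 1 satellite. The share was 33.2% (30.7 to 35.8) of the 1379 regions held by both lists, 16.7% (15 to 18.6) of the 1706 held by doxorubicin alone and 25.8% (23.5 to 28.2) of the 1410 held by DMSO alone. Among regions that Nutlin-3 listed, a satellite stood beside 417 of 1328 held by both (31.4%, 28.9 to 34), 98 of 747 held by doxorubicin alone (13.1%, 10.8 to 15.8) and 125 of 727 held by DMSO alone (17.2%, 14.5 to 20.1). The share was highest at sites common to both lists. Wide regions of doxorubicin alone had few: of the 391 that were at least 160 bp wide, 19 (4.86%, 2.95 to 7.48) had a satellite and 265 had no Nutlin-3 peak within 1000 bp. Regions of this width held by DMSO alone had a satellite in 49 of 187 cases (26.2%, 20.1 to 33.1). Dense runs of their own list held 424 doxorubicin peaks and 28 DMSO peaks, which are kept among the established peaks. With these left out, 1322 satellites remained, so nearly all satellites lay beside established peaks outside such runs. The part of these runs in the shares of regions, here and in the next paragraph, was not tested.

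Some sites that Nutlin-3 missed by the overlap criterion had a satellite instead. By overlap Nutlin-3 listed 2802 of the 4495 regions (62.3%, 60.9 to 63.8). A further 467 (10.4%, 9.51 to 11.3) were not overlapped but had a satellite, which brings the total with either to 72.7%. For regions held by both lists the 41 with a satellite made up 80.4% (66.9 to 90.2) of the 51 that Nutlin-3 did not list, and 4 of the 1379 had no Nutlin-3 peak within 1000 bp. The satellite share of unlisted regions was 19.5% (17 to 22.2) for doxorubicin alone and 35% (31.4 to 38.7) for DMSO alone, and 39.4% and 22.7% of all regions in these classes had no Nutlin-3 peak within 1000 bp.

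**Figure D4:**
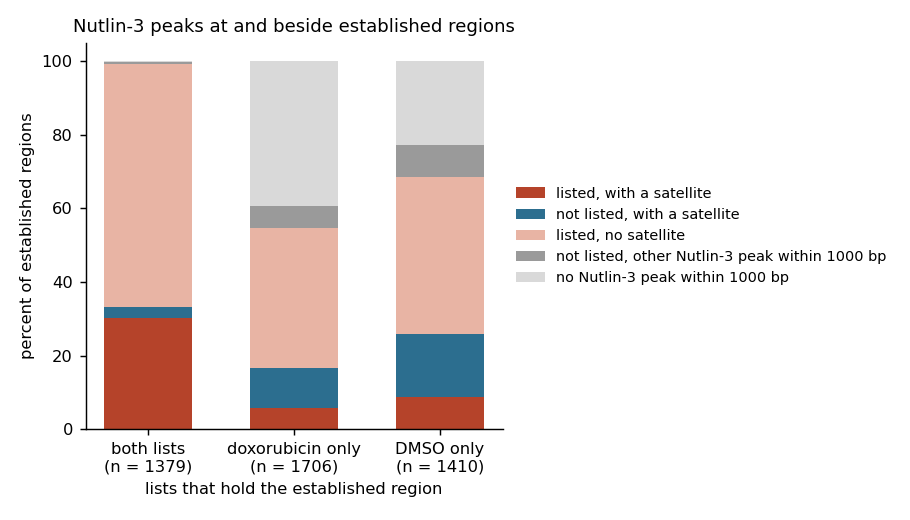
Established regions by the lists that hold them (horizontal axis) and what the Nutlin-3 list has at or beside them, in percent of the regions of a class (vertical axis); listed means overlapped by a Nutlin-3 peak, with peak ends taken to lie outside. Satellites beside listed regions (dark red) are most frequent at regions held by both lists, where 31.4% of the listed regions have one, and satellites beside unlisted regions (blue) at regions held by DMSO alone, of which they mark 17%.

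Satellites were narrow, as most peaks of these lists are. Their median width was 60 bp (60 to 60), with a mean of 83.5 bp and a range from 40 to 560 bp. The smallest width, 40 bp, made up 540 of 1325 satellites (40.8%, 38.1 to 43.5), against 51.6% (49.6 to 53.6) of the 2435 Nutlin-3 peaks outside dense runs that lay on established peaks and 30.5% (29.7 to 31.3) of the 12477 isolated Nutlin-3 peaks, which overlapped no list and lay over 1000 bp from an established peak. Widths of 80 to 140 bp were found in 18.3% of satellites, 17.2% of peaks on established sites and 27.1% of isolated peaks. Widths of at least 300 bp were found in 37 satellites (2.79%, 1.97 to 3.83), 4.35% of peaks on established sites and 2.01% of isolated peaks. The rule itself bears on these shares, since a wider peak near a site is more likely to overlap it and be left out.

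The 2 sets differed in their narrowest class. Peaks of 40 bp made up 48.5% (44.4 to 52.7) of satellites beside unlisted sites and 34.7% (31.3 to 38.2) of those beside listed sites. Within the unlisted set the share was 53.5% (48.5 to 58.5) of the 396 with gaps under 100 bp and 37.8% (30.8 to 45.2) of the 185 farther away. The established peak was narrow too: it was 40 bp wide for 53.7% (49.5 to 57.8) of satellites beside unlisted sites and for 39.5% (36 to 43.1) of those beside listed sites. Narrow peaks at short gaps are favoured by the rule, because a wider peak there would more often overlap the site and not be a satellite. The part of width in the split was not tested.

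Beside a listed site the satellite was not regularly the smaller of the Nutlin-3 peaks. It was wider than the Nutlin-3 peak on the established site in 360 of 744 cases (48.4%, 44.7 to 52) and equally wide in 184 (24.7%, 21.7 to 28). Of the 622 Nutlin-3 peaks that lay on a site with a satellite, 58.4% (54.4 to 62.3) were 40 bp wide, against 49.3% (47 to 51.6) of the 1813 on established sites without such a satellite. Among the 10 widest satellites, which ran from 400 to 560 bp, those beside a listed site were wider than the Nutlin-3 peak on it, as choosing the widest favours. On chromosome 14 a satellite of 520 bp, from 56202111 to 56202631, stood 260 bp below a Nutlin-3 peak of 160 bp that had the bounds of the DMSO peak, from 56202891 to 56203051. On chromosome 16 a satellite of 480 bp, from 59914251 to 59914731, stood beside a Nutlin-3 peak of 40 bp from 59914931 to 59914971, where DMSO had 120 bp and doxorubicin 80 bp. On chromosome 3 a satellite of 540 bp, from 112166831 to 112167371, stood beside a Nutlin-3 peak of 300 bp that spanned a doxorubicin peak of 40 bp. On chromosome 1 Nutlin-3 had a satellite of 440 bp, from 242965931 to 242966371, and a peak of 140 bp at the lower end of the site, which was wide in DMSO, with 360 bp from 242965511 to 242965871. Beside unlisted sites, the chromosome 5 satellite from 43464191 to 43464611 (420 bp) lay 60 bp below a doxorubicin peak of 60 bp, and the chromosome 7 satellite from 34140151 to 34140571 (420 bp) lay 120 bp above a DMSO peak of 80 bp. Wider than these were satellites of 560 bp and 540 bp on chromosome 8, whose nearest established peaks of 40 bp were also not overlapped by Nutlin-3. For the one of 540 bp this holds for the nearest peak alone, a DMSO peak from 128877151 to 128877191. In the same region a Nutlin-3 peak from 128877191 to 128877231 overlapped the doxorubicin peak from 128877171 to 128877211.

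Satellites usually had company in their own list. Another Nutlin-3 peak lay within 1000 bp of 995 satellites (75.1%, 72.7 to 77.4), against 33.9% (32 to 35.8) of Nutlin-3 peaks on established sites and 12.1% of the 12477 isolated peaks. For satellites beside listed sites, which gave 742 of the 995, the share was 99.7%, as the choice of that set nearly fixes it. Isolated peaks lie over 1000 bp from every established peak, so a Nutlin-3 peak on such a site could seldom be that near. The rule thus sets much of the contrast of 75.1% with 12.1%. For satellites beside unlisted sites the share was 43.5% (39.5 to 47.7), made up of 29.8% (25.3 to 34.6) at gaps under 100 bp and 73% (66 to 79.2) at gaps of 100 bp or more. Close satellites beside unlisted sites were thus mostly the single Nutlin-3 peak of their surroundings, and the distant ones mostly were not.

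The same construction applied to the other treatments gave a different balance of the 2 sets. Beside the 9.60% of Nutlin-3, and outside dense runs of their own list, 52.7% of 566 doxorubicin peaks that overlapped no other list lay within 1000 bp of a DMSO or Nutlin-3 peak, and 55.0% of 705 such DMSO peaks lay within 1000 bp of a doxorubicin or Nutlin-3 peak. These 2 shares are not comparable with that of Nutlin-3, since the short lists are set against the long one. For Nutlin-3, 56.2% of the satellites stood beside a site in their own list, against 10 of the 298 doxorubicin satellites (3.36%, 1.62 to 6.08) and 51 of the 388 DMSO satellites (13.1%, 9.95 to 16.9). The median gap was 220 bp for Nutlin-3 and 20 bp for each of the others, each set against a different pair of lists, and the median width was 60 bp for Nutlin-3 and 40 bp for each of the others.

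Against the same established list, the share of satellites with the site in their own list still differed widely between Nutlin-3 and doxorubicin. It differed less between Nutlin-3 and DMSO. The peaks compared were still filtered unlike. Doxorubicin and DMSO peaks had to overlap no peak of the long Nutlin-3 list, whereas Nutlin-3 peaks had to overlap none of the short lists. Of the 13802 Nutlin-3 peaks, 7.33% lay within 1000 bp of a DMSO peak and 7.01% within 1000 bp of a doxorubicin peak. Of the 566 doxorubicin peaks 19.8% lay within 1000 bp of a DMSO peak, and of the 705 DMSO peaks 23.8% lay within 1000 bp of a doxorubicin peak. Beside DMSO peaks, 62.5% (59.4 to 65.5) of 1011 Nutlin-3 satellites and 10.7% (5.66 to 18) of 112 doxorubicin satellites had the site in their own list. Beside doxorubicin peaks, the shares were 65.7% (62.6 to 68.7) of 967 Nutlin-3 satellites and 46.4% (38.7 to 54.3) of 168 DMSO satellites. Over all satellites beside doxorubicin peaks, the median gap was 260 bp for Nutlin-3 and 180 bp for DMSO, and over all beside DMSO peaks it was 240 bp for Nutlin-3 and 20 bp for doxorubicin. The satellites beside doxorubicin peaks with the site in their own list lay at a median gap of 300 bp for Nutlin-3 and 240 bp for DMSO. Sides were balanced in these lists too, with 51.3% (45.5 to 57.1) of doxorubicin and 49.7% (44.7 to 54.8) of DMSO satellites on the higher side. The part of list length in these differences was not tested. Depth cannot be told apart from treatment with 1 library per condition.

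**Figure D5:**
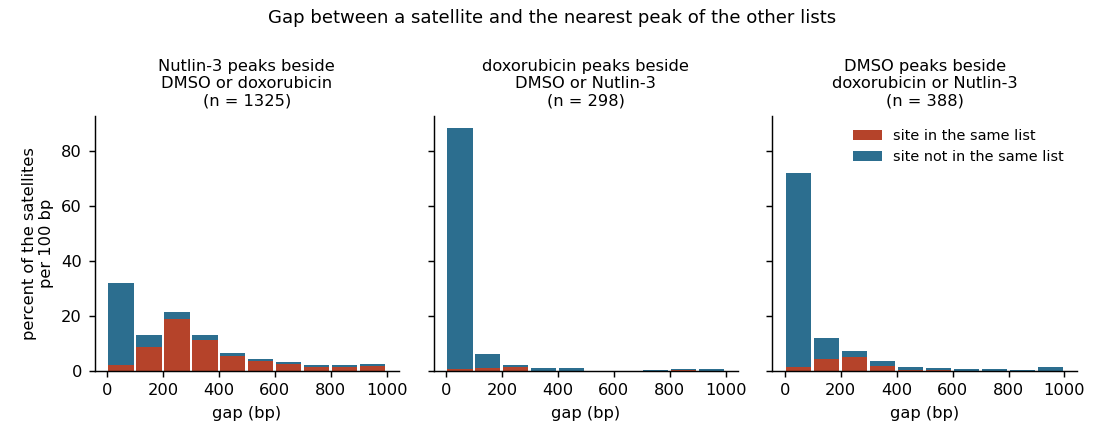
Gap in bp between a satellite and the nearest peak of the other lists (horizontal axis), in percent of the satellites of a list per 100 bp (vertical axis), for Nutlin-3, doxorubicin and DMSO satellites. Red marks satellites whose site is also in their own list and blue those whose site is not; red makes up 56.2% for Nutlin-3, 3.36% for doxorubicin and 13.1% for DMSO.

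Satellites were spread over the autosomes and chromosome X, with none on chromosomes Y or M. Over the 21 chromosomes with at least 20 satellites, there were between 19.6 satellites per 100 established regions, on chromosome 16, and 43.4, on chromosome 15, with a median of 32. The share beside listed sites ranged from 34.7% on chromosome 12 to 75% on chromosome 22, with a median of 57.5%. The median gap ranged from 120 bp on chromosome 14 to 260 bp on chromosomes 7, 10 and 17. Chromosome Y had 104 established regions and 0 Nutlin-3 peaks that could have been satellites, as none there was both outside dense runs and free of overlap. These 104 regions count among the 4495 and so enter the shares of regions given above. Whether they are p53 sites was not tested.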

How the data were processed

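The authors deposited a peak list for each of the 4 ChIP libraries, giving chromosome, start and end (3 columns) without a score or read count. Per the submitters' processing notes, the build was hg18 and the tools were CASAVA and Bowtie 0.12.2; the sources used here name neither the peak caller nor its threshold. Whether a peak's end belongs to it is not stated, and it was taken to lie outside. The members and lists were chosen with earlier results of these data known.

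Positions were analysed with Python 3.11.15, numpy 2.4.6 and scipy 1.17.1, and plotted with matplotlib 3.10.9. An overlap was at least 1 bp, and a gap was counted between the nearest edges. Shares have exact Clopper-Pearson intervals, medians exact binomial order-statistic intervals and densities exact Poisson intervals (95%). Sequence at each distance was counted between the first and last peak of a chromosome. The selection was tested on simulated peaks and recovered 100% of them. The simulated sites lay far apart, without peaks of untreated cells or dense runs, so this checks the code in a simple setting only.

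The regions named are the widest satellites, those at sites with 3 satellites or with satellites on both sides, adjoining ones and those next to the limit of 1000 bp; examples of each part are given. No gene or sequence is given, because the reference tables used here are of another build.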

Additional observations from a re-analysis of the deposited data

How the results depend on the processing

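With 1 library per condition no replicate could be left out, no threshold on a peak score could be tried, and depth limits every share by an unknown amount. No paired analysis was possible because each group has 1 sample. The 5 main values were recomputed 62 times in all: 44 values kept to the 95% interval (to 1.5 times for the number of satellites), 13 were above it and 5 below. Causes were not tested except where the construction shows them. Leaving out established peaks in dense runs, asking the overlap of the merged region asking it of every peak within 1000 bp, and splitting the sets with the end inside the peak were chosen after seeing the data.

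The number of satellites ranged from 608 to 1671. It moved past 1.5 times with established regions held by both DMSO and doxorubicin (617, fewer sites) and with peaks of 40 bp left out of all lists (608, fewer peaks). The share on the higher side stayed within its interval under all 12 alternatives (50.8% to 53.3%). The median width moved once, to 80 bp without the peaks of 40 bp, by construction.

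The median gap of 220 bp became 180 bp with a window of 500 bp, 240 bp with a window of 2000 bp, 240 bp with DMSO peaks alone, 260 bp with doxorubicin peaks alone, 280 bp with regions held by both, 240 bp when adjoining peaks counted as overlapping and 240 bp without peaks of 40 bp. The share beside a site that Nutlin-3 also listed, 56.2%, moved under 8 of 14 alternatives. It was 59.7% without the exclusion of dense runs, 62.5% with DMSO peaks alone, 65.7% with doxorubicin peaks alone, 90.9% with regions held by both, 69.6% when adjoining peaks counted as overlapping (which left 1139 satellites), 51% when an overlap had to reach 50% of the narrower peak, 28.3% without peaks of 40 bp (so that this set was then the smaller) and 61.8% when every established peak within 1000 bp was asked.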

Other observations

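The same rule found 346 further Nutlin-3 peaks inside dense runs of the Nutlin-3 list, which are not among the 1325. In the whole Nutlin-3 list 24.1% of peaks (23.5 to 24.7) had another peak of that list within 1000 bp, against 14.6% (13.4 to 15.9) in the doxorubicin list, 14.8% (13.5 to 16.2) in the DMSO list and 21.8% (18.2 to 25.7) in the list of untreated cells.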
